A study of Mus musculus with 6 samples.

Results

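Type I interferon-stimulated antiviral genes were followed in mouse CD8+ T cells, the lymphocytes that recognise and kill infected cells. The set held 43 genes named by symbol, from Isg15 to Tor3a, and all 43 were found among the 55487 genes of each deposited table. The cells came from C57BL/6 mice and were kept for 48 h with 5 mM itaconate, a dicarboxylate that activated macrophages produce, in 3 libraries. The other 3 libraries came from cells kept as long with NaCl, the control. The age of the mice, the isolation of the cells and any activation of them were not stated in the labels. Since the labels do not tie replicates to separate animals or cultures, the p-values here reflect variation among 6 libraries, and that variation may be technical. All 9 markers of CD8 T cells on the list used were detected, with summed levels of 3912 to 3928 CPM in itaconate and 3378 to 3523 CPM in control libraries, and Cd8a and Thy1 among them were higher with itaconate. CPM are counts scaled to the library total after normalisation between libraries, and TPM, used to compare genes, also take gene length into account. Library totals ran from 18280217 to 31643408 expected counts.

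Type I interferons bind a receptor made of IFNAR1 and IFNAR2, and the attached kinases JAK1 and TYK2 phosphorylate transcription factors, STAT2 among them. With IRF9, STAT2 takes part in a complex that binds the interferon-stimulated response element (ISRE) in the promoters of antiviral genes. The products sense viral RNA or DNA, degrade or edit RNA, stop translation, and block the entry or budding of virus. In CD8 T cells type I interferon also acts as a cytokine signal beside antigen and costimulation. Interferon-gamma uses another receptor and acts through the GAS element, and many of the same genes answer both.

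Several members carry the letters of this response element in their promoters. RefSeq promoters of the GRCm38.p6 build, 250 bases before to 50 bases after the gene start, were at hand for 31 of the 43 members. The letters GAAANNGAAA, the core of the ISRE, were searched on both strands. They stood in a promoter of 15 of the 31 members (48.4%), against 3.99% of 27025 genes and 3.44% of 32851 promoters of the same length. The windows below are read in the direction in which the core is GAAANNGAAA, with up to 10 bases on either side and the core in capitals. They were chosen to set members that were lower with itaconate beside members that did not pass the test and Ifit3b, which was not tested. The first 5 lines are members that were lower with itaconate.
Isg15, minus strand, chr4:156200871-156200900: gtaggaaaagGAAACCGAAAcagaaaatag
Oas3, minus strand, chr5:120777715-120777744: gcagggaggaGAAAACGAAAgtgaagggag
Ifih1, minus strand, chr2:62646206-62646233: gaagagaatcGAAACAGAAAccgatctg
Ifi203, minus strand, chr1:173942508-173942537: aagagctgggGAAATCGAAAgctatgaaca
Eif2ak2, minus strand, chr17:78882535-78882564: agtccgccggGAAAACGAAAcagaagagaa
Ddx58, read on the strand opposite to the gene, chr4:40239804-40239833: ctggccatagGAAATCGAAActgcctcagg
Ifit1, read on the strand opposite to the gene, chr19:34640794-34640823: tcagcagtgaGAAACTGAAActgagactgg
Ifit3, read on the strand opposite to the gene, chr19:34583363-34583392: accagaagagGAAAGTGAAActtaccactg
Ifit3b, read on the strand opposite to the gene, chr19:34607759-34607788: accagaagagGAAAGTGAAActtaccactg
Rsad2, read on the strand opposite to the gene, chr12:26456553-26456582: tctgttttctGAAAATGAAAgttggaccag
The windows of Ifit3 and Ifit3b, nearby paralogs, are the same letter for letter. Among windows not shown, the core of Trim30a, which was lower, was read on the strand opposite to the gene. Those of Bst2, Ifitm3, Oas1a and Slfn5, which did not pass, were read on the strand of the gene.

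In the promoter of Isg15 there were 3 overlapping matches, which form an unbroken run of response-element letters. It is shown because Isg15 was the abundant member with the largest difference. The 250 bases upstream of its start, at chr4:156200819-156201068 on the minus strand (GRCm38.p6), read from 5′ to 3′ with the 3 overlapping cores in capitals, are as follows.
Isg15: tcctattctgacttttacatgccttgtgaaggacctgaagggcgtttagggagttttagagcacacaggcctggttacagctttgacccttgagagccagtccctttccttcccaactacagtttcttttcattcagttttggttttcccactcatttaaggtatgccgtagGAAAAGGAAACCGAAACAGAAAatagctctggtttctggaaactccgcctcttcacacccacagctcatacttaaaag
The centres of the 3 cores lay 73, 67 and 61 bases before the start. A core was found in 6 of the 11 members with a promoter that were lower with itaconate, and in 8 of the 18 that did not pass. The GAS letters TTCNNNGAA, which read the same on both strands, stood in a promoter of 8 of the 31 members (25.8%), against 9.55% of all genes with a promoter at hand. Of the 11 members that were lower, 2 held them, and of the 18 that did not pass, 6 did. These matches are a description of letters in a window, and Cmpk2, Trim25, Slfn2, Adar and Samd9l were lower without a core in it.

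Itaconate-treated cells had lower levels of 15 of the 43 antiviral genes, and no member was called higher. Among these 15 the larger differences were those of Mx1, Isg15, Cmpk2 and Ifih1, each about 2-fold to 3-fold lower, while abundant members such as Trim25 and Slfn2 were lower by less. Of the other members, 26 did not pass the test and 2, Ifit3b and Ifi44, had too few counts to be tested. The test was edgeR's quasi-likelihood test over 12350 genes with Benjamini-Hochberg adjustment at 0.05, by which 5.36% of all tested genes were lower and 6.68% higher with itaconate. At an unadjusted p under 0.05 the same test put 0 members higher. DESeq2 also called 15 members lower and 0 higher, with 4.98% of all its genes lower. Without the filter on low counts the median log2 fold change of all 43 members was -0.41, with 39 below 0, while 51.7% of all genes in that fit were below 0. The median of all genes tested with the filter was 0.01. Of the 41 tested members, 3 (Oas2, Rsad2 and Ifi204) passed the filter without reaching its level in every itaconate library. For 18 of the 43 members every itaconate library was below every control library in CPM, as it was for 14.4% of all tested genes. No member was separated the other way, where 16.8% of all tested genes were.

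**Figure D1:**
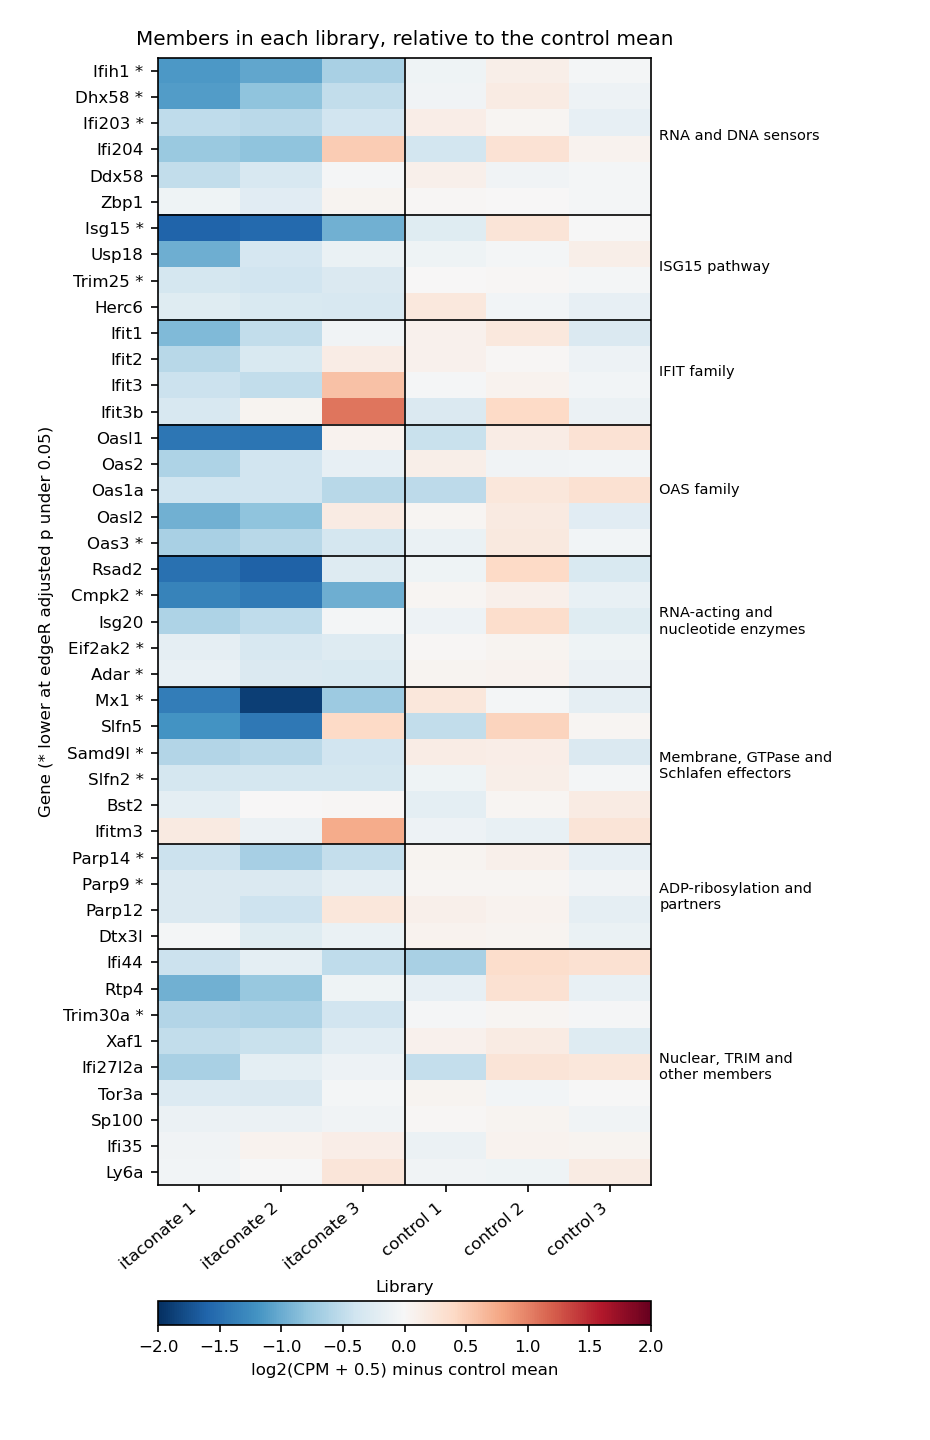
Difference of each of the 43 members (rows, grouped by role) from the mean of the control libraries in each of the 6 libraries (columns), on the log2(CPM + 0.5) scale. Blue is lower and red higher than the control mean, and an asterisk marks the 15 members that were lower at an edgeR adjusted p under 0.05. The columns of itaconate replicates 1 and 2 are mostly blue, and that of itaconate replicate 3 is paler, with Ifit3b at 1.08 and Ifitm3 at 0.75.

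The number of calls differed between analyses. With an offset for effective gene length, the only choice changed, 10 of the 15 passed (Dhx58, Oas3, Mx1, Samd9l and Adar did not), where 1.96% of all genes were lower. With limma on log2(TPM + 1), which changes the test, the unit and the filter together, 6 passed (Isg15, Ifih1, Trim25, Trim30a, Cmpk2 and Slfn2), where 1.7% of all genes were lower. Trim30a alone passed with limma when no filter on low TPM was used, where 0.132% of all genes were lower. Without the filter on low counts in edgeR, 18 members passed, Oasl1, Rsad2 and Usp18 in addition, where 4.2% of all genes were lower.

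Among the ISG15 genes, Isg15, which encodes a ubiquitin-like protein that is secreted or attached to other proteins, differed most. It had 3.91, 4.05 and 6.35 CPM in itaconate replicates 1, 2 and 3, against 10.8, 15.5 and 12.8 CPM in control replicates 1, 2 and 3. Every itaconate library was below every control library, and the fitted log2 fold change was -1.43 ± 0.20 (SE; edgeR adjusted p = 0.001). Per length it stood at a mean of 12.2 TPM with itaconate and 35.1 TPM in control cells. Isg15 (ENSMUSG00000035692) lies on chromosome 4 at 156199424 to 156200818 of GRCm38, on the minus strand. Trim25, a ubiquitin ligase that acts with the sensor RIG-I, had 105, 103 and 110.2 CPM with itaconate and 136, 136 and 131 CPM in control libraries. The groups did not overlap and the difference was small but steady, at -0.34 ± 0.05 (adjusted p = 0.000643). Usp18, the protease that removes ISG15 and also blocks IFNAR2 signalling, had 6.33, 10.2 and 11.8 CPM with itaconate and 12.2, 12.7 and 14.2 CPM in control libraries. It did not pass, at -0.46 ± 0.19 (adjusted p = 0.157), although its groups were separate. Herc6, the main ligase for ISG15 in mice, did not pass either, at 8.24 ± 0.24 CPM with itaconate and 10.2 ± 1.4 CPM in control cells (SD, n = 3; edgeR adjusted p = 0.131).

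The sensors of viral nucleic acid did not move as a block. Ifih1, which encodes MDA5, a sensor of long double-stranded RNA, had 4.40, 4.77 and 6.43 CPM with itaconate and 9.76, 11.3 and 10.1 CPM in control libraries. Dhx58, encoding its helper LGP2, had 4.31, 5.44 and 6.91 CPM with itaconate, against 9.43, 11.2 and 9.14 CPM in control libraries. Both were lower in all 3 itaconate libraries, by -0.98 ± 0.15 (edgeR adjusted p = 0.000905) and -0.82 ± 0.16 (adjusted p = 0.00491) on the log2 scale, and Dhx58 lost its call with the offset for effective length. Ddx58, which encodes RIG-I, a sensor of RNA ends, had 9.95, 11.3 and 14.0 CPM with itaconate and 15.3, 13.6 and 13.9 CPM in control libraries. Itaconate replicate 3 reached the control range, and the gene did not pass (-0.28 ± 0.12, adjusted p = 0.172). Zbp1, a sensor of left-handed nucleic acid that starts cell death, was at 30.5 ± 3.1 CPM with itaconate and 32.2 ± 0.66 CPM in control cells (edgeR adjusted p = 0.606). Ifi203, of the p200 family of nuclear DNA-binding proteins, had 33.3, 32.3 and 36.0 CPM with itaconate and 51.7, 48.7 and 42.2 CPM in control libraries (-0.49 ± 0.08, adjusted p = 0.00156). Its exons overlap those of Mndal on the same strand, and its expected counts were in part not whole, so the authors' counting divided some of its reads. Ifi204, of the same family, was counted 4, 3 and 27 times with itaconate and 11, 19 and 23 times in control libraries, with overlap.

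None of the 4 members of the IFIT family, whose proteins bind foreign RNA at its end, passed the test. The 4 genes lie in 1 stretch of chromosome 19, between 34550694 and 34650009 of GRCm38. Ifit2 had 13.7, 16.4 and 22.6 CPM with itaconate and 21.5, 20.5 and 18.8 CPM in control libraries. Ifit1 had 2.23, 3.05 and 4.29 CPM with itaconate and 4.79, 5.32 and 3.59 CPM in control libraries. Ifit3 had 1.53, 1.44 and 3.60 CPM with itaconate and 2.19, 2.37 and 2.13 CPM in control libraries. For all 3, itaconate replicates 1 and 2 were below the control range, while replicate 3 lay within it for Ifit1 and above it for Ifit2 and Ifit3. The edgeR adjusted p-values were 0.202 for Ifit1, 0.487 for Ifit2 and 0.999 for Ifit3. Ifit3b, a paralog of Ifit3 that was not tested, had 2, 5 and 25 rounded counts with itaconate and 3, 10 and 6 in control libraries. Ifit3 and Ifit3b held counts that were not whole, so the authors' counting divided some of their reads, between which genes was not examined, and their separate levels are uncertain.

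**Figure D2:**
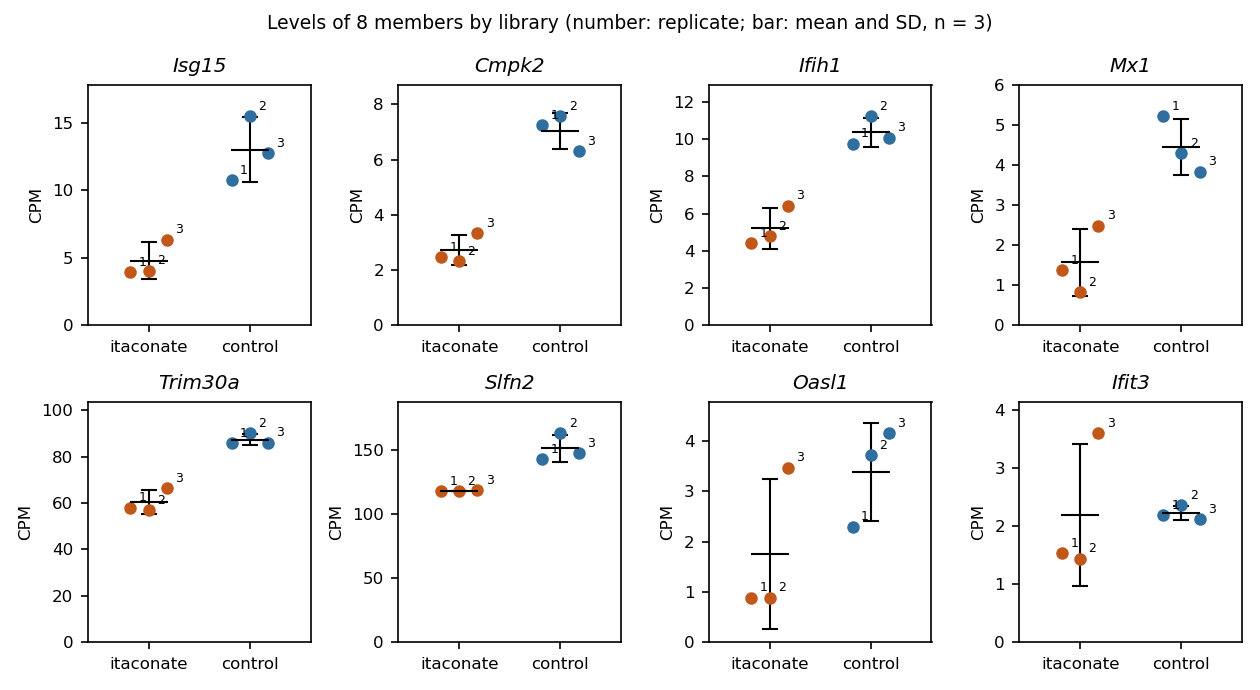
CPM of 8 members in each library, itaconate left and control right, with the replicate number beside each point and the mean and SD (n = 3) as bars. Isg15, Cmpk2, Ifih1, Mx1, Trim30a and Slfn2 are lower in every itaconate library, whereas itaconate replicate 3 lies inside the control range for Oasl1, at 3.47 CPM, and above it for Ifit3, at 3.60 CPM.

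Of the 5 OAS genes 1 was lower, where 5.36% of all tested genes were. Without the filter all 5 had negative log2 fold changes, from -0.91 to -0.52, with a median of -0.62. The OAS enzymes answer double-stranded RNA by making oligoadenylates that activate RNase L, while the OAS-like proteins act without that activity or with little of it. Oas3 had 19.8, 21.1 and 24.2 CPM with itaconate and 28.2, 35.8 and 29.9 CPM in control libraries. The groups were separate, and the log2 fold change was -0.52 ± 0.10 (edgeR adjusted p = 0.00488), a call lost with the offset for effective length. Oasl1, which in mice restrains translation of IRF7, had 0.891, 0.888 and 3.47 CPM with itaconate and 2.30, 3.72 and 4.16 CPM in control libraries. Oasl2 had 0.841, 0.999 and 2.40 CPM with itaconate and 2.19, 2.46 and 1.71 CPM in control libraries. Itaconate replicates 1 and 2 were below every control library for both, and replicate 3 stood among the controls. Neither passed (adjusted p = 0.364 for Oasl1 and 0.372 for Oasl2, edgeR). Oas1a had 1.58, 1.61 and 1.37 CPM with itaconate and 1.41, 2.71 and 2.89 CPM in control libraries, with overlap (adjusted p = 0.21). Oas2 was counted 8, 10 and 17 times with itaconate and 27, 17 and 26 times in control libraries, and it did not pass (adjusted p = 0.322).

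Among enzymes that act on RNA or nucleotides, 3 of 5 were lower, where 5.36% of all tested genes were. Cmpk2, a mitochondrial nucleotide kinase, had 2.47, 2.33 and 3.35 CPM with itaconate and 7.24, 7.59 and 6.32 CPM in control libraries. This was a log2 fold change of -1.36 ± 0.18 (edgeR adjusted p = 0.000308), and the groups were far apart. Its neighbour on chromosome 12, Rsad2, encodes viperin, which makes a nucleotide that ends viral RNA chains. Rsad2 had 0.346, 0.277 and 1.5 CPM with itaconate and 1.74, 2.66 and 1.43 CPM in control libraries. Its fitted difference was as large, at -1.38, but its SE was 0.54 and it did not pass (adjusted p = 0.134), with itaconate replicate 3 inside the control range. Eif2ak2, the kinase PKR that halts translation on double-stranded RNA, stood at 34.1 ± 1.8 CPM with itaconate and 40.7 ± 2.1 CPM in control cells (SD, n = 3). Adar, which edits A to I in double-stranded RNA, stood at 97.4 ± 6.4 CPM with itaconate and 116 ± 8.3 CPM in control cells. Both were lower by 0.25 on the log2 scale (edgeR adjusted p = 0.0299 for Eif2ak2 and 0.0207 for Adar). These were marginal calls, each lost when control replicate 1, control replicate 2, itaconate replicate 2 or itaconate replicate 3 was left out (adjusted p of 0.0581 to 0.122). Adar also lost its call with the offset for effective length (adjusted p = 0.1), and Eif2ak2 did not. Isg20, an exonuclease, was at 3.46 ± 0.88 CPM with itaconate and 4.69 ± 1.2 CPM in control cells (adjusted p = 0.26).

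Of the 6 members grouped as membrane, GTPase and Schlafen effectors, Mx1, Samd9l and Slfn2 were lower, where 5.36% of all tested genes were. Mx1 encodes an interferon-induced GTPase, for which many laboratory strains carry a defective allele. It had 1.39, 0.832 and 2.49 CPM with itaconate, against 5.23, 4.30 and 3.84 CPM in control libraries. The log2 fold change of -1.47 ± 0.31 (edgeR adjusted p = 0.00926) was the most negative of the tested members, and counts were low, at 28, 15 and 58 with itaconate and 141, 89 and 121 in control libraries. The call was lost with the offset for effective length (per-library values were 1.1, 0.91 and 2.91 TPM with itaconate and 3.25, 2.52 and 3.73 TPM in control libraries). On that scale itaconate replicate 3 lay inside the control range. Slfn2, a Schlafen protein needed for T cell quiescence, was steady within the treated group, at 118, 118 and 119 CPM with itaconate and 143, 163 and 148 CPM in control libraries (-0.36 ± 0.05, adjusted p = 0.000905). Samd9l, which restricts translation of viral RNA, was at 17.3 ± 1.3 CPM with itaconate and 24.8 ± 4.1 CPM in control cells (adjusted p = 0.0139), a call lost without control replicate 2, itaconate replicate 1 or itaconate replicate 2 (adjusted p of 0.0536 to 0.0725) and with the offset for effective length (0.0573).

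Other members of that class did not pass. Bst2, or tetherin, which holds budding virus at the cell surface, was one of the most abundant members and was nearly level, at 111, 127 and 129 CPM with itaconate and 111, 130.1 and 142 CPM in control libraries (-0.06 ± 0.09, edgeR adjusted p = 0.754). Ifitm3, which blocks entry of virus, was counted 16, 10 and 33 times with itaconate and 15, 11 and 27 times in control libraries (log2 fold change 0.51 ± 0.42, adjusted p = 0.493). Slfn5 had 0.940, 0.721 and 3.86 CPM with itaconate and 1.86, 4.01 and 2.89 CPM in control libraries, and its range between itaconate libraries, 1.84 on the log2(CPM + 0.5) scale, was the widest of any member on that scale.

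Parp9 and Dtx3l, whose proteins form a complex that modifies ubiquitin and histones, are neighbours on chromosome 16 with exons that overlap on opposite strands. Parp9 was at 67.4 ± 2.7 CPM with itaconate and 80.5 ± 3.6 CPM in control cells, and Dtx3l at 80.3 ± 5.9 CPM with itaconate and 88.4 ± 6.8 CPM in control cells (SD, n = 3). Parp9 passed (-0.25 ± 0.06, edgeR adjusted p = 0.0112) and Dtx3l did not (-0.14 ± 0.07, adjusted p = 0.225), and their difference from each other was not tested. Parp9 did not pass when control replicate 2 was left out (adjusted p = 0.0607) or when itaconate replicate 2 was (adjusted p = 0.05 after rounding, above the threshold). Parp14, a mono-ADP-ribosyltransferase in the same stretch of chromosome 16, had 63.2, 53.8 and 61.1 CPM with itaconate and 88.9, 91.5 and 76.5 CPM in control libraries (-0.53 ± 0.08, adjusted p = 0.000975). Parp12, another mono-ADP-ribosyltransferase, was at 3.03 ± 0.88 CPM with itaconate and 3.38 ± 0.40 CPM in control cells (adjusted p = 0.753).

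Among the remaining 9 members, Trim30a was lower and 7 did not pass, where 5.36% of all tested genes were lower. Trim30a, a mouse TRIM protein that restrains innate signalling, had 58.0, 57.0 and 66.5 CPM with itaconate and 85.6, 90.1 and 86.0 CPM in control libraries. Its log2 fold change of -0.52 ± 0.06 had the smallest adjusted p of the set (0.000178, edgeR), and its call held in all 16 alternative analyses. Its expected counts were in part not whole, so the authors' counting divided some of its reads. Ly6a, the surface protein Sca-1, was the most abundant member per length, at 523 TPM with itaconate and 528 TPM in control cells, and its groups overlapped (0.06 ± 0.10, adjusted p = 0.768). Ifi35 was at 65.1 ± 4.9 CPM with itaconate and 63.0 ± 4.6 CPM in control cells (adjusted p = 0.724). Sp100, a component of PML nuclear bodies, was at 101 ± 1.9 CPM with itaconate and 109 ± 5.0 CPM in control cells (adjusted p = 0.219). Ifi27l2a, Rtp4, Tor3a and Xaf1 had log2 fold changes from -0.66 (Rtp4) to -0.20 (Tor3a) and adjusted p-values from 0.117 (Xaf1) to 0.514 (Ifi27l2a). Ifi44, not tested, was counted 6, 8 and 6 times with itaconate and 5, 18 and 26 times in control libraries.

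**Figure D3:**
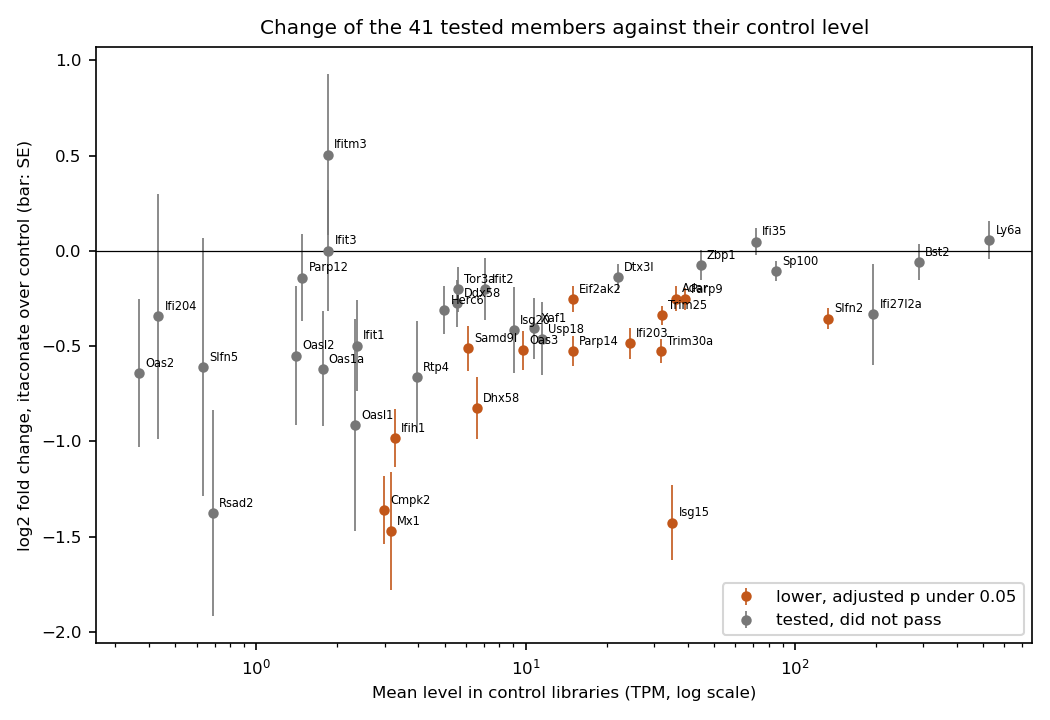
Log2 fold change of the 41 tested members (vertical axis, with its SE) against their mean TPM in the control libraries (horizontal log axis). Orange marks the 15 members that were lower and grey the 26 that did not pass; Isg15, at 35.1 TPM and -1.43, stands apart from other members at its level, and members under 1 TPM have wide bars.

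Among the members, those with lower control levels had the wider spread. Of 18 members with at least 10 TPM in control cells 9 were lower and 9 did not pass. Of 25 members under 10 TPM 6 were lower, 17 did not pass and 2 were not tested. Over all tested genes, of every level, 5.36% were lower, and shares of all genes at the same levels were not computed. The median log2 fold change without a filter was -0.29 in the abundant and -0.52 in the less abundant members. The median range between the 3 itaconate libraries was 0.22 on the log2(CPM + 0.5) scale for the abundant and 0.65 for the less abundant members, and in control libraries it was 0.20 and 0.40. For all tested genes, not split by level, it was 0.18 in itaconate and 0.18 in control libraries. Across the 43 members Spearman's rho was -0.64 between control TPM and the range with itaconate, and 0.36 between control TPM and log2 fold change. These are descriptions across genes that share the same 6 libraries, and how far low counts account for the wider range was not tested.

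The itaconate libraries differed among themselves in these genes. Relative to the control mean, the median log2 difference of the 43 members was -0.50, -0.39 and -0.13 in itaconate replicates 1, 2 and 3, while that of all tested genes was 0.01 in each of these libraries. The control libraries lay at -0.02, 0.08 and -0.06. In itaconate replicate 3 the level was the highest of the 3 itaconate libraries for 36 of 43 members, which was so for 31.8% of all tested genes. Of the 43 members, 37 were below every control library in itaconate replicate 1, 35 in replicate 2 and 20 in replicate 3, against 29.4%, 32.7% and 30.4% of all tested genes. Above every control library were 0 members in itaconate replicate 1, 1 in replicate 2 and 9 in replicate 3, against 32.3%, 34.7% and 32.9% of all tested genes. The members' share above the controls was thus below that of all genes in replicate 3 too. The 15 members that passed were lower in all 3 libraries, with medians of -0.58, -0.55 and -0.39 in itaconate replicates 1, 2 and 3. The 26 that did not pass had medians of -0.50, -0.36 and -0.03. Both groups were formed by the test on these same libraries, so the contrast between them follows in part from that selection. The range was wider in itaconate than in control libraries for 28 members, where 50.3% of all tested genes had it so.

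The 3 tested IFIT genes had medians of -0.55, -0.49 and 0.15 in itaconate replicates 1, 2 and 3, and Ifit3b, with few counts, had -0.32, 0.06 and 1.08. Members of other groups were also above the control mean in replicate 3, among them Ifitm3 at 0.75, Ifi204 at 0.51 and Slfn5 at 0.40. Without itaconate replicate 3, 19 members were lower, 13 of them among the 15, and the median log2 fold change was -0.55. The 6 added were Ifit2, Oasl1, Rsad2, Rtp4, Slfn5 and Usp18 (edgeR adjusted p of 0.00573 to 0.0499), and Eif2ak2 and Adar were lost. Rsad2, at 0.346 and 0.277 CPM in itaconate replicates 1 and 2, passed the filter there only through the control libraries. In that fit 3.03% of all genes were lower. Leaving out each of the other libraries in turn gave 11 to 16 members lower, where 319 to 693 of all genes were lower. Of the 15 members, 11 kept their call in all 6 fits with 1 library left out.

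**Figure D4:**
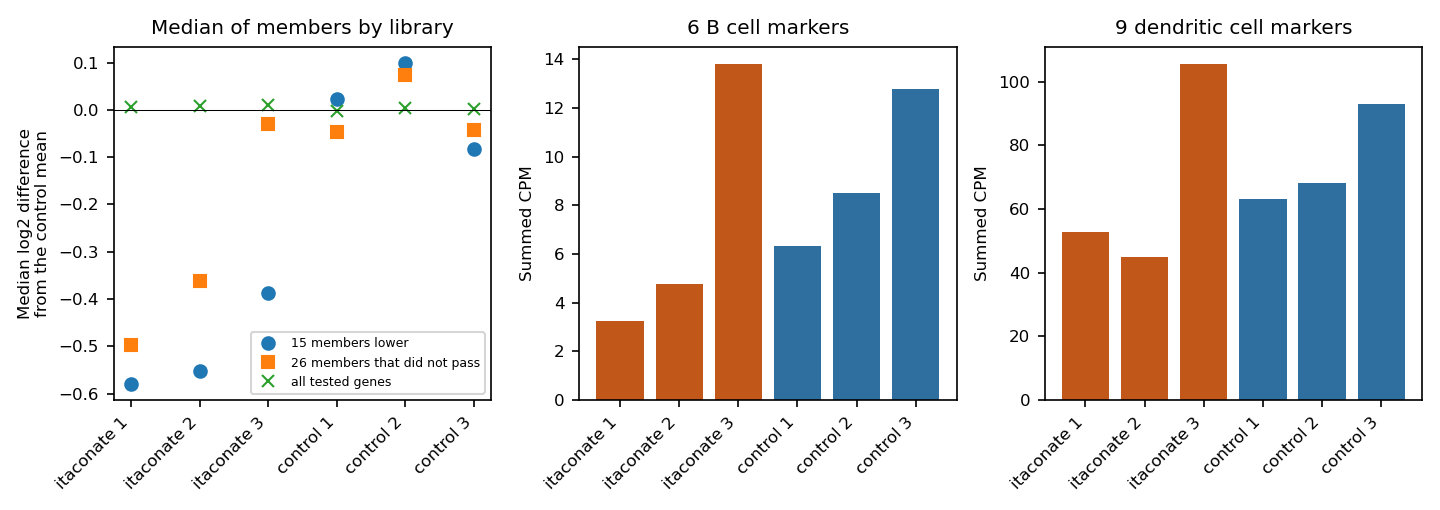
Left, the median log2 difference from the control mean in each library for the 15 members that were lower, the 26 that did not pass and all 12350 tested genes. The members were split by the test on these same libraries. Middle and right, summed CPM of 6 B cell markers, chosen after their values were seen, and of all 9 dendritic cell markers. Itaconate replicate 3 has the highest sum in both, at 13.8 and 105.7 CPM, and the members' medians nearest to 0 among the itaconate libraries, but over all 8 B cell markers itaconate replicate 1 has the highest sum.

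Markers of other cells also differed between the libraries. All 8 listed B cell markers were detected, and their summed level was 321, 295 and 311 CPM in itaconate replicates 1, 2 and 3, against 292, 273 and 291 CPM in control libraries. For 6 of them (without Ighm and Cd79b, a choice made after their values were seen) it was 3.27, 4.77 and 13.8 CPM in itaconate replicates 1, 2 and 3, against 6.35, 8.51 and 12.8 CPM in control libraries. The 9 dendritic cell markers, which include genes of MHC class II, summed to 44.9 to 105.7 CPM with itaconate, the highest value in replicate 3, and to 63.3 to 93.0 CPM in control libraries. The 8 neutrophil markers summed to 0.0555 to 13.8 CPM with itaconate, again highest in replicate 3, and to 0 to 3.58 CPM in control libraries, with Ly6g at 0 in all 6. The 12 macrophage and monocyte markers summed to 2.89 to 4.20 CPM with itaconate and 1.84 to 2.67 CPM in control libraries. Siglech, which defines plasmacytoid dendritic cells, the main producers of type I interferon, was at 0 in all 6 libraries. None of the 7 B cell, 2 macrophage and 4 dendritic cell markers with enough counts to be tested passed, and no neutrophil marker could be tested. The 7 NK cell markers summed to 123, 111 and 140.1 CPM with itaconate and 106, 97.1 and 109.6 CPM in control libraries, without overlap. Most of this was Eomes, which CD8 T cells also express, at 123 ± 14 CPM with itaconate and 103 ± 5.9 CPM in control cells (edgeR adjusted p = 0.0477, higher). The 8 fibroblast and endothelial markers summed to 20.8 to 22.5 CPM with itaconate and 23.4 to 28.8 CPM in control libraries, and the 8 erythroid and platelet markers to 0.987 to 5.22 CPM with itaconate and 1.6 to 2.22 CPM in control libraries. The 3 CD4 T cell markers summed to 7.88 to 11.6 CPM with itaconate and 6.27 to 10.2 CPM in control libraries. None of the tested markers in these last 3 lists passed. Of the plasmacytoid list Irf8 and Runx2, which T cells also use, were higher, and its 8 genes, Irf8 and the member Bst2 among them, summed to 929 to 1028.5 CPM with itaconate and 688 to 812 CPM in control libraries. The part of other cells in the levels of the antiviral genes was not tested. In bulk RNA fewer cells of a type and less RNA per cell cannot be told apart.

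Upstream of the antiviral genes, the interferon genes themselves were almost silent apart from Ifng. Of 21 interferon ligand genes 17 had no count in any library, which allows up to 0.0948 to 0.164 CPM each, and Ifnb1 had a level above 0 in 1 library only, itaconate replicate 3, at 0.0429 CPM. These limits cover counting error only. Ifng, the interferon that CD8 T cells secrete, did not pass, at 468 ± 54 CPM with itaconate and 455 ± 73 CPM in control cells (edgeR adjusted p = 0.898).

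Genes of the receptor chains were higher rather than lower. Of 6 receptor genes 5 were tested, 4 were higher and 1 did not pass, where 6.68% of all tested genes were higher. Ifnar2, the signalling chain of the type I receptor, had 50.4, 55.2 and 54.1 CPM with itaconate and 46.3, 43 and 40.6 CPM in control libraries (0.30 ± 0.07, edgeR adjusted p = 0.0105). Leaving out control replicate 2, itaconate replicate 2 or itaconate replicate 3 ended its call (adjusted p of 0.051 to 0.0663). Ifnar1, the other chain, was at 84.4 ± 3.2 CPM with itaconate and 79.7 ± 1.9 CPM in control cells (adjusted p = 0.364). Ifngr1, the ligand-binding chain for interferon-gamma, was at 101 ± 5.5 CPM with itaconate and 78.3 ± 3.1 CPM in control cells (0.37 ± 0.06, adjusted p = 0.000999). Ifngr2, its partner, was at 10.8 ± 0.90 CPM with itaconate and 7.10 ± 0.30 CPM in control cells (adjusted p = 0.00449), but at 4.08 TPM with itaconate and 4.01 TPM in control cells, and it did not pass with the offset for effective length (adjusted p = 0.799).

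The signal transducers were mixed: of 13 tested, 1 was higher, 2 were lower and 10 did not pass. For all tested genes the shares were 6.68% higher and 5.36% lower. Irf7, the factor that amplifies the type I response and is itself interferon-induced, had 4.26, 4.83 and 6.39 CPM with itaconate and 8.06, 10.7 and 8.16 CPM in control libraries. The groups were separate (-0.78 ± 0.17, edgeR adjusted p = 0.00882), but it did not pass when control replicate 2 was left out (adjusted p = 0.0586) or with the offset for effective length (0.0711). Jak2, a kinase of the interferon-gamma receptor, was at 65.0 ± 1.3 CPM with itaconate and 92.8 ± 6.1 CPM in control cells (-0.51 ± 0.06, adjusted p = 0.000115). Irf8 was higher, at 837 ± 43 CPM with itaconate and 615 ± 51 CPM in control cells (0.44 ± 0.06, adjusted p = 0.000542). Stat2 and Irf9, of the ISRE-binding complex, did not pass: Stat2 was at 35.5 ± 1.2 CPM with itaconate and 40.9 ± 3.0 CPM in control cells (edgeR adjusted p = 0.0769), and Irf9 at 26.6 ± 3.1 CPM with itaconate and 30.3 ± 1.4 CPM in control cells (0.174). Jak1, Tyk2 and Irf1 did not pass either (adjusted p = 0.186, 0.561 and 0.0813, edgeR).

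Of 19 tested genes of nucleic acid sensing upstream of interferon, 2 were lower, none was higher and 17 did not pass. Over all tested genes 5.36% were lower and 6.68% higher. Tmem173, which encodes the adaptor STING, was at 97.9 ± 4.4 CPM with itaconate and 130.2 ± 14 CPM in control cells (-0.41 ± 0.07, edgeR adjusted p = 0.00272). Samhd1, a nucleotidase that limits reverse transcription, was at 242 ± 1.4 CPM with itaconate and 287 ± 17 CPM in control cells (adjusted p = 0.00515), a call lost with the offset for effective length (0.193). Of 13 negative regulators of interferon signalling, 4 were higher, none was lower and 9 did not pass, Usp18 of the members among them. The share of all tested genes that were higher was 6.68%. Socs1, an inhibitor of JAK kinases, was at 87.9 ± 1.9 CPM with itaconate and 72.0 ± 6.5 CPM in control cells (adjusted p = 0.0101), a call lost without itaconate replicate 3 (0.0526) and with the offset for effective length (0.0573). Irf2bp2, a partner of the repressor IRF2, was higher by 0.30 ± 0.05 on the log2 scale (adjusted p = 0.00174).

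Other interferon-stimulated genes that are not among the 43 were more often lower than higher. Of 77 listed, 69 were tested, 23 were lower, 3 were higher and 43 did not pass, with a median log2 fold change of -0.18. Of all tested genes 5.36% were lower and 6.68% higher. Gbp5, a guanylate-binding protein induced mainly by interferon-gamma, was at 59.1 ± 5.5 CPM with itaconate and 117 ± 14 CPM in control cells (edgeR adjusted p = 0.00023). Ms4a6b, a membrane protein of T cells, was at 95 ± 1.7 CPM with itaconate and 124 ± 3.8 CPM in control cells (adjusted p = 0.00023). The higher genes included Sp110, a nuclear body protein, at 149 ± 3.5 CPM with itaconate and 125 ± 1.3 CPM in control cells (adjusted p = 0.00306), and Herc3, a ubiquitin ligase of the HERC family, at 42.1 ± 3.4 CPM with itaconate and 32.6 ± 0.73 CPM in control cells (0.00412). In Gbp5 itaconate replicate 3, at 60.9 CPM, lay between replicates 1 and 2, at 63.5 and 53.0 CPM.

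**Figure D5:**
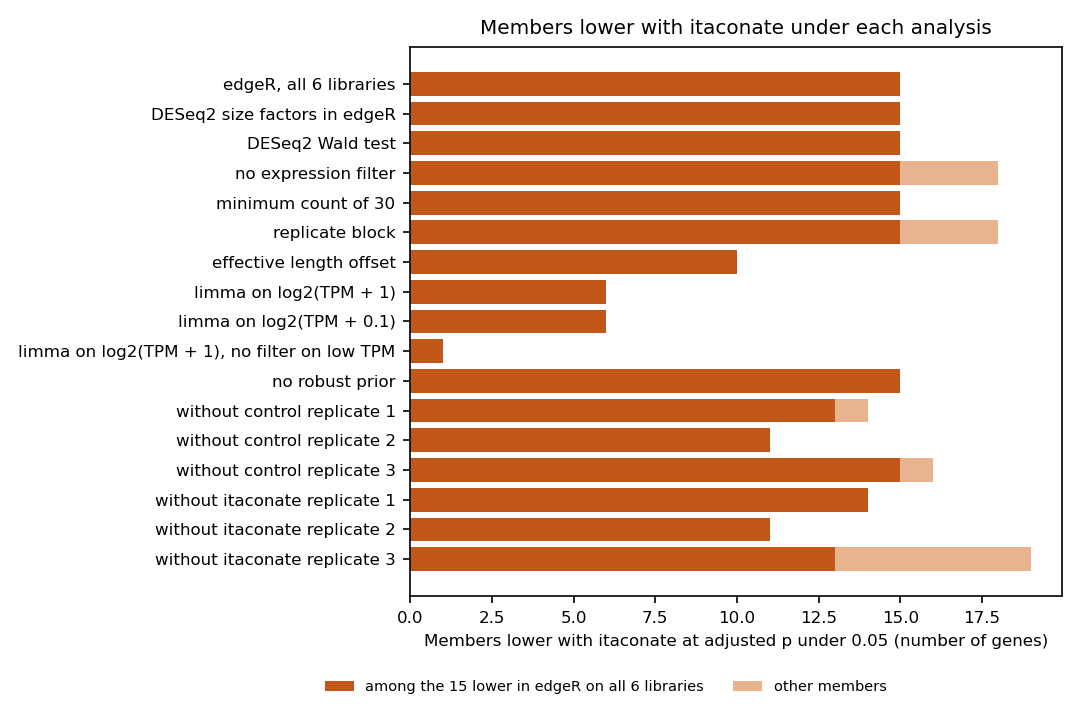
Number of the 43 members that were lower with itaconate at an adjusted p under 0.05 in edgeR on all 6 libraries and in each alternative analysis (rows). Dark bars count members among the 15, and light bars other members; the number runs from 1 with limma on unfiltered TPM to 19 without itaconate replicate 3.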

How the data were processed

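RNA-seq of 6 libraries was analysed from the authors' gene tables. The deposited expected counts are estimated reads for each gene without scaling, and the deposited TPM were adjusted by the authors for effective length, both per the file headers, whose column names are RSEM's. Bowtie 0.12.2, mm8 and mm10 are named, without a role, in the submitters' processing notes. Annotation, strand setting and RSEM version: not given in the sources used here. Coordinates come from GENCODE M21 (GRCm38), which held 99.83% of the gene identifiers.

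Members were matched by symbol. The members and gene lists were chosen with earlier results of these data known. Every member could be named. From each pathway list the rule took up to 2 higher and 2 lower genes with the smallest adjusted p, plus 11 genes by name, of which 1 is not reported here.

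Expected counts were rounded and tested in edgeR 4.0.16 (R 4.3.3; TMM, robust quasi-likelihood, two-sided, minimum count 10, minimum total 15). Fold changes are itaconate over control, and SE is the fold change divided by the root of the F statistic. Alternatives used DESeq2 1.42.0, limma 3.58.1, an offset of effective length, other filters and each library left out. Of the members, 13 held counts further than 0.001 from a whole number. Among them were Trim30a, Parp9, Eif2ak2, Ifi203 and Adar, which were called lower. Pairs of libraries of a group differed by chi-square values per gene of 4.84 to 16.9, above sampling noise.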

Additional observations from a re-analysis of the deposited data

How the results depend on the processing

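No member was called higher in any of the 16 alternative analyses, and the median log2 fold change of the members lay between -0.55 and -0.30. Members called lower numbered 15 with DESeq2 size factors, DESeq2, a minimum count of 30 or no robust prior, 18 without an expression filter, 10 with effective length as an offset, 6 with limma on log2(TPM + 1) or log2(TPM + 0.1), 1 with limma on log2(TPM + 1) without a filter, and 11 to 19 with 1 library left out. Of all genes, 1487 were called (825 higher, 662 lower), against 567 (325 and 242) with effective length as an offset, 305 (115 and 190) with limma on log2(TPM + 1), 304 (115 and 189) on log2(TPM + 0.1) and 59 (30 and 29) without a filter on TPM. With 1 library left out the calls numbered 726 to 1400, of which 407 to 707 were higher and 319 to 693 lower. The causes were not tested.

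With the replicate number as a block, 2419 genes were called, 1315 higher and 1104 lower, and 18 members lower. The numbers do not mark a known pairing: deviations of same-numbered libraries correlated at 0.15, 0.04 and 0.03, and itaconate replicate 2 correlated best with control replicate 3, at 0.10. For 63 named genes, 888 of 997 alternative values kept their side of the threshold, 90 lost a call, 19 gained one and 0 reversed. Depth limits members such as Oas2, Ifi44 and Ifit3b, with few counts per library.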
